A study of Arabidopsis thaliana with 6 samples.

Results

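Glycolipid transfer proteins are small soluble proteins that carry single lipids between membranes. The protein is a bundle of helices that binds the head group of the lipid, a sugar or a phosphate, while the lipid tails lie in a hydrophobic pocket. Plant members bind sphingolipids such as glucosylceramide or ceramide-1-phosphate. The best known Arabidopsis member of the fold, ACD11, transfers ceramide-1-phosphate, and its loss causes spontaneous cell death with activated defence.

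4 Arabidopsis glycolipid transfer protein loci were considered: AT4G39670, AT1G21360 (GLTP2), AT2G33470 (GLTP1) and AT3G21260 (GLTP3). A locus was measured where the array's annotation pairs a probe set with it alone. That held for 1 of the 4, AT4G39670, which has 1 of the 22810 probe sets of the array. The other loci, and ACD11 (AT2G34690), are not paired with a probe set in the annotation used here and were not analysed here. The values below therefore describe AT4G39670 and not the family.

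The samples were whole seedlings of the accession Col-0 on 0.8% agar, at 20 °C with 16 h light and 8 h dark. At developmental stage 1.04 they were fumigated in their plates for 6 h, either with 500 ppb ozone or with scrubbed air as the control, and RNA was extracted directly afterwards. Ozone enters leaves through stomata and breaks down into reactive oxygen species. Each group had 3 replicates, each on 1 Affymetrix ATH1 array. The values are MAS5 signals, which summarise the probe pairs of a probe set on a linear scale, and the median signal of an array was 41.7 to 49.45.

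AT4G39670 was dim in scrubbed air and bright after ozone. Its signal was 12.7, 17.7 and 7.3 in control replicates 1 to 3, and 586.5, 450.4 and 329.6 in ozone replicates 1 to 3. The groups did not overlap, as at 45.7% of tested probe sets (18.2% with ozone the higher group), and the lowest ozone signal was 18.6 times the highest control signal. The mean rose from 12.6 ± 5.20 to 456 ± 129 (SD, n = 3 each), a difference of 443 signal units. The log2 fold change was 5.23 (SE 0.35, 95% interval 4.42 to 6.04), or 37.6-fold, with a limma adjusted p of 9.53e-05 over all 13648 tested probe sets. Of those probe sets 28.0% changed at an adjusted p under 0.05, and 13.0% rose. A rise with a log2 fold change of at least 4 was found at 63 probe sets, or 0.462%. The gene was chosen for description with this result known, so its test is no independent evidence. In whole seedlings, more cells of a type that expresses the gene and more RNA per cell cannot be told apart.

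**Figure D1:**
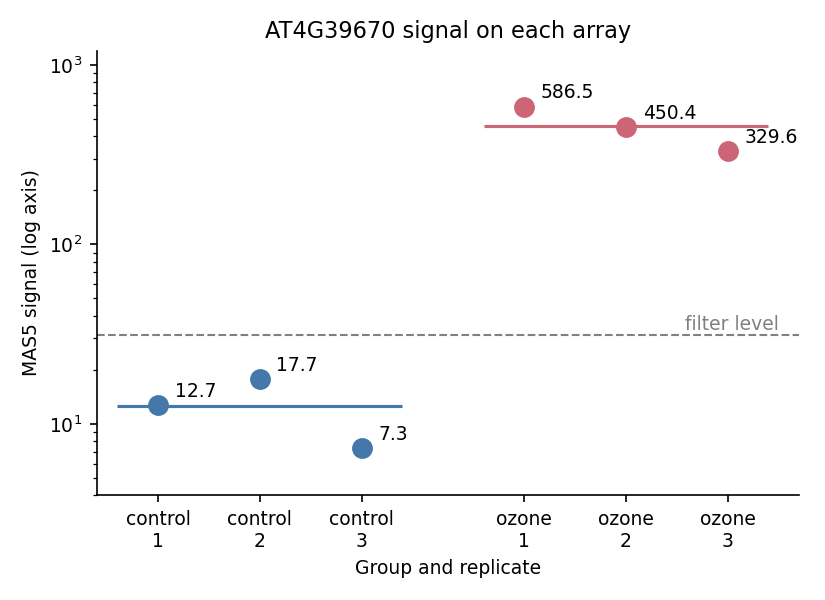
MAS5 signal of AT4G39670 (log axis) on each of the 6 arrays, by group and replicate. Points are arrays, solid lines are the group means of 12.6 and 456, and the dashed line is the signal of 31.2 used as the filter on dim probe sets, which all 3 control arrays lie below and all 3 ozone arrays lie above.

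The replicates of each group differed among themselves by much less than the groups did. The highest control signal was 2.42 times the lowest, and the highest ozone signal was 1.78 times the lowest. Ozone replicate 3 had the lowest ozone signal and control replicate 3 the lowest control signal. Set against the control array of the same replicate number, the ozone signal was 46.2, 25.4 and 45.2 times as high for numbers 1, 2 and 3. The smallest of these ratios belonged to number 2, where the control signal was highest.

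How large the fold is depends on the control signals, which lie in the dim range. All 3 were below 31.2, the filter level, so the probe set entered the test only through its ozone arrays. Without the filter its limma adjusted p was 0.00022. The ozone mean was 14.6 times that filter level and the lowest ozone signal was 10.6 times it. The log2 fold change was 4.02 when 16 was added to the signals and 2.73 when 64 was added. Among 7313 tested probe sets with 1 locus, AT4G39670 ranked 7 by log2 fold change, 10 with 16 added and 12 with 64 added. It thus stayed among the 12 highest on each of these scales while the size of its fold fell.

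**Figure D2:**
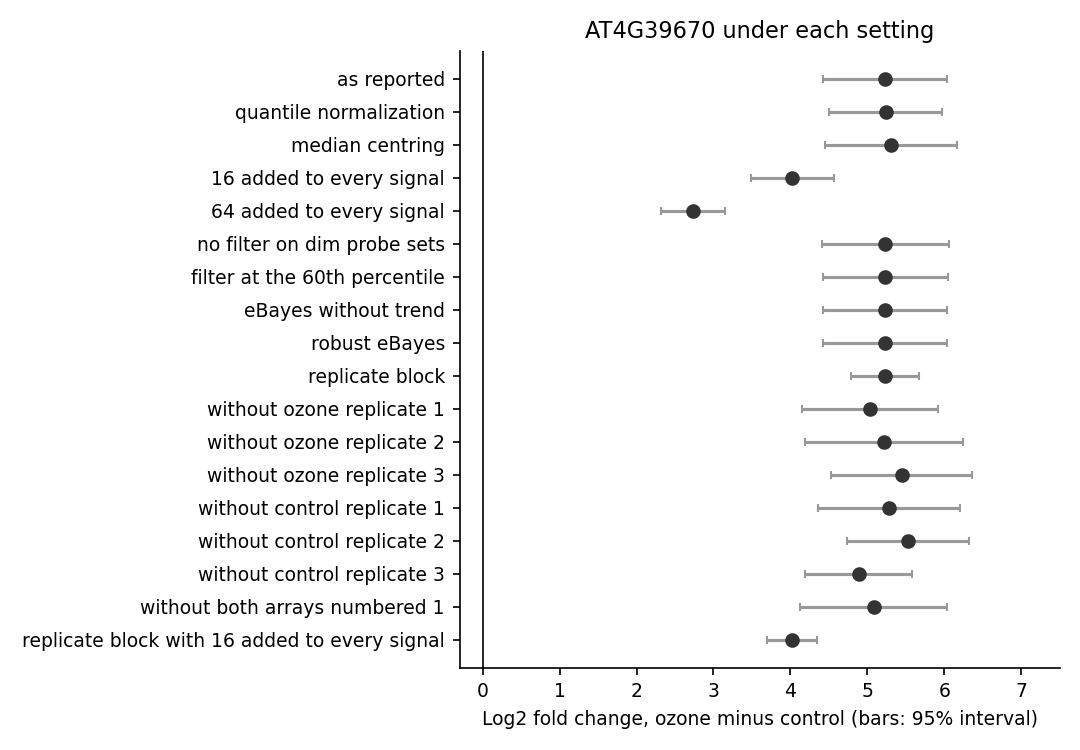
Log2 fold change of AT4G39670, ozone minus control, with its 95% interval under the reported setting and each of 17 alternatives. All intervals lie above 0; the 2 settings that add 64 or 16 to the signal, and the block fit with 16 added, give smaller values (2.73 and 4.02) than the others.

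The 5 genes whose log2 signal followed that of AT4G39670 most closely over the 6 arrays had Pearson correlations of 0.9969 to 0.9983. They were AT5G52750, AT1G72900, AT1G34420, AT3G25610 and AT4G36640. AT3G25610, which encodes a phospholipid flippase that moves lipids between the leaflets of a membrane, had signals of 6.4, 9.0 and 5.0 in control and 305.3, 324.1 and 204.0 in ozone replicates. AT5G52750 went from 18.2, 22.5 and 11.5 to 274.6, 188.0 and 191.4. Both were dim in every control array and much brighter in every ozone array, like AT4G39670. They were picked for this likeness, so it is no separate result. Every control signal of both lay below the filter level of 31.2, so they entered the comparison only through their ozone arrays. AT1G72900 had a log2 fold change of 3.41, while AT1G34420 and AT4G36640 had smaller ones of 0.88 and 1.06, so a like pattern did not mean a like size. A correlation over 2 groups of arrays mostly reflects the difference between the groups: 39 of 7312 probe sets reached 0.99 and 390 reached 0.95. The deviations of the 5 genes from their group means also correlated with those of AT4G39670 (r = 0.886 to 0.946). The 5 genes were picked for likeness over the same arrays, so this is no separate result either. All these values come from the same 6 arrays.

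**Figure D3:**
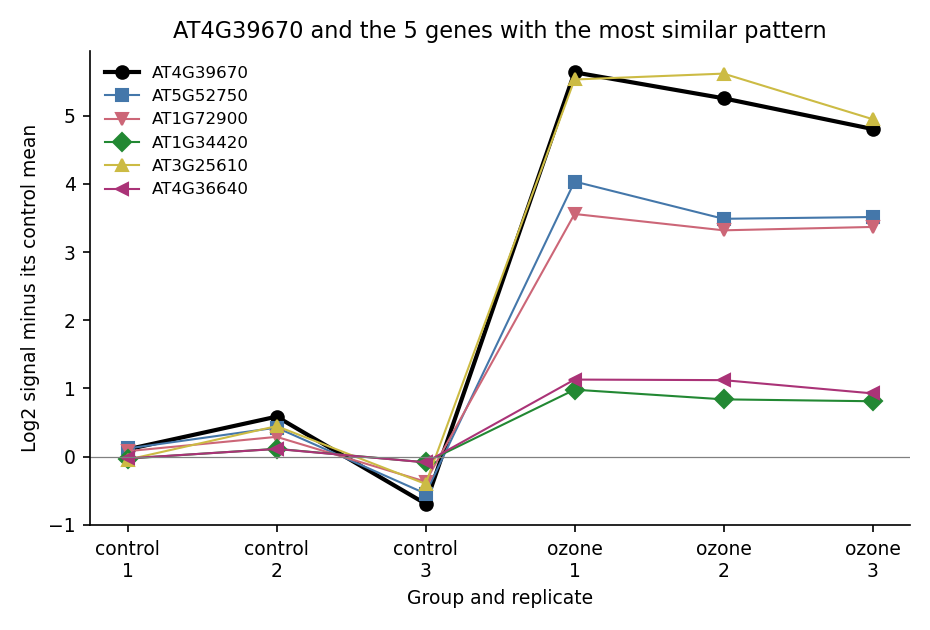
Log2 signal minus its control mean on each array for AT4G39670 (black) and the 5 genes with the highest correlation to it. Control replicate 2 is the highest control array and control replicate 3 the lowest for each gene, and the ozone arrays lie between about the level of AT1G34420 (log2 fold change 0.88) and that of AT3G25610 (5.37).

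The lipids that these proteins carry are made and broken down by enzymes whose genes were read beside AT4G39670. Sphingolipids start from serine and a fatty acid, joined to a long-chain base, which becomes ceramide and then receives a head group. For 17 of 43 listed genes of these steps a probe set was available, and 13 of them were bright enough to be tested. Of the 13 tested, 1 rose, 0 fell and 12 did not pass. Over all tested probe sets 28.0% changed and 13.0% rose, and 13 genes are few to set against these shares.

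Among the genes of long-chain base and ceramide synthesis, 0 of 4 tested passed by limma, and 0 with the replicate block. At an unadjusted p under 0.05 the count was also 0. Their median log2 fold change was -0.16, against -0.15 over all tested probe sets. Of all tested probe sets 28.0% changed, or 49.1% with the block, and 4 genes are too few to set against these shares. LCB2 (AT5G23670), a subunit of the serine palmitoyltransferase that catalyses the first committed step, had 177.7, 223.3 and 165.9 in control and 120.1, 132.5 and 166.3 in ozone replicates. Its groups overlapped narrowly, and the log2 fold change of -0.44 did not pass (limma adjusted p = 0.125). TSC10A, a reductase that acts on the product of that step, had a log2 fold change of -0.25 (limma adjusted p = 0.299). The genes for the ORM proteins, which restrain serine palmitoyltransferase, had 0.25 (AT1G01230) and -0.08 (AT5G42000) and did not pass.

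Among the genes that attach head groups or break sphingolipids down, 1 of 9 tested rose and 8 did not pass. The median log2 fold change of the 9 was 0.11, against -0.15 over all tested probe sets. Of all tested probe sets 28.0% changed and 13.0% rose, and 9 genes are too few to set against these shares. AT3G24180, listed as a glucosylceramidase-type enzyme, which removes the sugar from glucosylceramide, had signals of 82.0, 76.5 and 81.1 in control and 150.6, 165.5 and 152.0 in ozone replicates. The groups did not overlap, and it rose 1.95-fold (log2 fold change 0.97, SE 0.15, limma adjusted p = 0.00289). The other tested genes listed for that step, AT4G10060 and AT5G49900, did not pass, with -0.47 and 0.11 on the log2 scale. Glucosylceramide synthase (AT2G19880), which adds the sugar, had signals of 44.7, 120.5 and 122.2 in control and 61.7, 99.5 and 95.9 in ozone replicates. Its arrays numbered 1 were low in both groups, and its log2 fold change was -0.05 (limma adjusted p = 0.936).

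DPL1 (AT1G27980), the lyase that ends sphingolipid breakdown by cleaving the phosphorylated long-chain base, had signals of 44.4, 83.9 and 67.9 in control and 84.7, 151.9 and 123.0 in ozone replicates. The ozone array was the higher one at each replicate number, and the lowest ozone signal lay just above the highest control signal. The log2 fold change was 0.88 (SE 0.30) and did not pass (limma adjusted p = 0.0612). With the replicate number as a block it passed (limma adjusted p = 0.000801), as it did after quantile normalization (0.0377), median centring (0.0328) or without ozone replicate 1 (0.0321). When any other 1 array was left out, DPL1 did not pass (limma adjusted p = 0.0568 to 0.199). The block gave 3 changed genes among the 9, AT3G24180, DPL1 and AT4G10060 (log2 fold change -0.47, limma adjusted p = 0.0184 with the block), where 49.1% of all tested probe sets changed. The ceramidase genes AT1G07380 (NCER1), AT2G38010 (NCER2) and AT4G22330 (ATCES1), which release the fatty acid from ceramide, did not pass either, with -0.18, -0.23 and 0.28 on the log2 scale. The ozone arrays of NCER2 (99.9, 100.9 and 95.8) were all lower than its control arrays (115.0, 110.1 and 123.6). The glycosyltransferase gene EPC1 (AT3G55830, GMT1), which adds mannose to glycosyl inositol phosphoceramides, had 0.16. Below the filter level lay TSC10B, the ceramidase gene AT5G58980 (NCER3), AT1G33700 and the glycosyltransferase gene AT5G04500 (GINT1), with group means of 2.10 to 28.6, and these 4 were not tested.

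**Figure D4:**
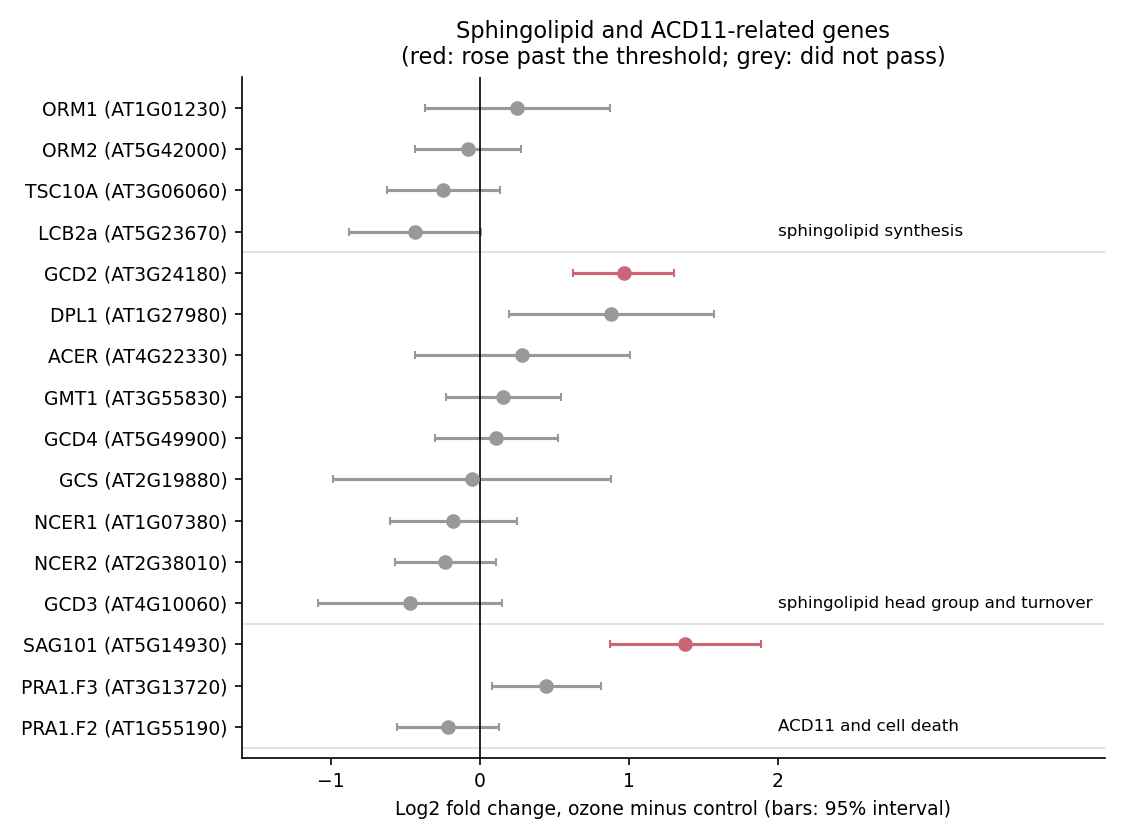
Log2 fold change, ozone minus control, with its 95% interval for the tested genes of sphingolipid synthesis, of head groups and turnover, and of the ACD11 and cell death list. AT3G24180 (labelled GCD2, 0.97) and SAG101 (1.38) rose past the threshold, and the others did not pass.

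ACD11 binds PRA1-family proteins of the endomembranes, and cell death after its loss runs through the EDS1 family of immune regulators. Among 26 listed genes around ACD11 and cell death, 3 could be measured and all 3 were tested: 1 rose, and the median log2 fold change was 0.45. Over all tested probe sets 28.0% changed and 13.0% were higher, and 3 genes are too few to set against these shares. SAG101 (AT5G14930), a partner of EDS1, had signals of 20.4, 24.6 and 32.5 in control and 67.7, 61.7 and 68.9 in ozone replicates. The groups did not overlap, and its log2 fold change was 1.38 (SE 0.22, limma adjusted p = 0.00344), or 0.98 after 16 was added to the signals. Of its controls 2 lay below the filter level and its mean reached it through the ozone arrays; without the filter its adjusted p was 0.00755. PRA8 (AT3G13720, PRA1.F3), which binds ACD11, had 189.8, 222.3 and 218.3 in control and 248.4, 307.9 and 304.6 in ozone replicates. The ozone arrays were all higher, but the log2 fold change of 0.45 did not pass (limma adjusted p = 0.0698), while it did with the replicate block (0.0115) and with median centring (0.0392). PRA7 (AT1G55190, PRA1.F2), the other ACD11-binding member, had 144.0, 148.2 and 170.5 in control and 130.2, 130.1 and 136.8 in ozone replicates. Its ozone arrays were all lower, and the log2 fold change of -0.22 did not pass (limma adjusted p = 0.313). Of the 12 listed oxysterol-binding protein related genes, another family that moves lipids between membranes, 0 could be measured.

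The genes beside AT4G39670 on its chromosome were also read, 10 protein-coding genes on each side in the order of the TAIR10.1 annotation. They were chosen by position, after the data had been seen. Of the 20, 8 could be measured and 6 were tested, of which 1 rose and 5 did not pass, near the 13.0% higher and 28.0% changed over all tested probe sets. The 1 that rose, AT4G39675, is the next gene in that order. Its signals were 28.3, 12.5 and 17.8 in control and 115.4, 228.2 and 37.6 in ozone replicates. The groups did not overlap, but the ozone arrays varied widely and ozone replicate 3 came close to control replicate 1. Its log2 fold change was 2.43 (SE 0.61, limma adjusted p = 0.0216, and 0.0388 without the filter). All 3 controls lay below the filter level, so it entered the test only through its ozone arrays. It did not pass without ozone replicate 1 (limma adjusted p = 0.0532), control replicate 2 (0.0714) or control replicate 3 (0.0600), and its log2 fold change was 1.78 after 16 was added to the signals. Without ozone replicate 2 it fell below the filter and was not tested. The genes that follow it in this order, AT4G39680 and AT4G39690, did not pass, with -0.37 and -0.09 on the log2 scale, while AT4G39680 did with the replicate block (limma adjusted p = 0.0421). On the other side, the nearest tested gene was AT4G39630, with -0.69 (limma adjusted p = 0.0818, and 0.0228 with the replicate block). The 3 genes next to AT4G39670 on that side, GGT1, GGT2 and AGT2, were not analysed here.

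**Figure D5:**
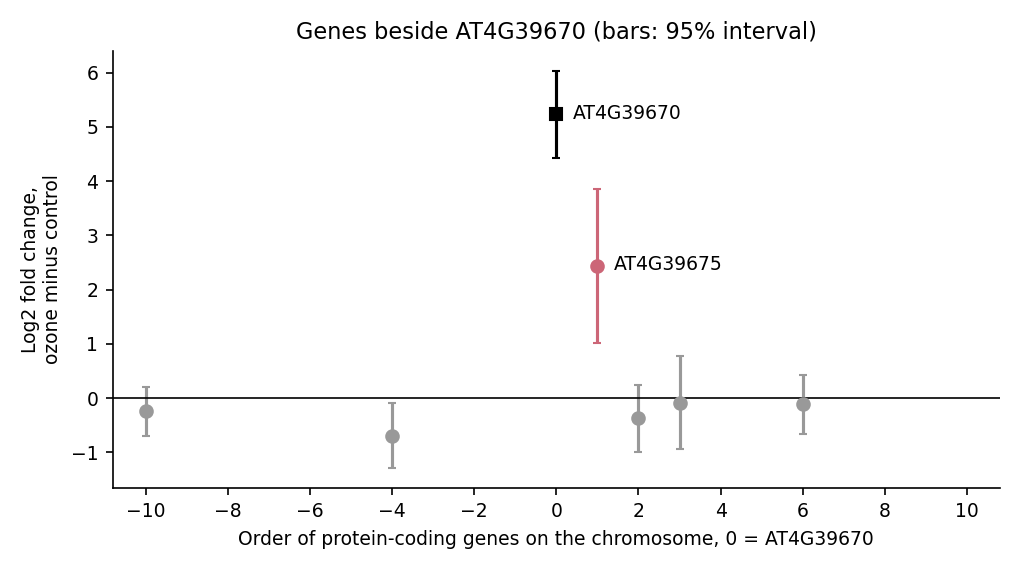
Log2 fold change, ozone minus control, with its 95% interval for AT4G39670 (square) and the tested genes among the 10 on each side, by their order on the chromosome. AT4G39675 beside it had 2.43, and the others lay between -0.69 and -0.09.

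Markers of organs and cell types were read beside these values. Of 5 leaf mesophyll markers 2 could be measured, and their summed signal was 3896 to 5493 in control and 2479 to 3119 in ozone replicates. Of these, the phosphoribulokinase gene PRK of the Calvin cycle fell (log2 fold change -0.97, limma adjusted p = 0.00671) and RCA had -0.39 and did not pass, while it did with the replicate block (0.00783). Of 4 root markers 3 could be measured, with summed signals of 2235 to 3440 in control and 1857 to 2478 in ozone replicates, and EXPA7 fell (-0.94, limma adjusted p = 0.0101). All ozone signals of EXPA7 lay below the filter level, so it was tested only through its control arrays (limma adjusted p = 0.0256 without the filter). PYK10, with 2154.2 to 3350.2 in control and 1805.8 to 2419.8 in ozone replicates, made up most of the root sum. It had -0.33 and did not pass (limma adjusted p = 0.315), while it did with the block (0.00754). EXPA18 had -0.57 and did not pass (limma adjusted p = 0.0938). Of 3 guard cell markers 2 could be measured, with summed signals of 384 to 432 in control and 224 to 378 in ozone replicates. AT1G22690 made up most of that sum. Neither passed, and AT1G22690 did with the replicate block (-0.44, limma adjusted p = 0.0376). Every measured marker had a negative log2 fold change. Over all tested probe sets 28.0% changed, or 49.1% with the block, and the median log2 fold change was -0.15. The leaf markers and the root marker PYK10 were bright on every array, while EXPA7 and EXPA18 lay below the filter level on every ozone array, and 0 of the measured markers were listed at 0. In the phloem and epidermis lists 0 genes could be measured. The part of these shifts in the values of AT4G39670 was not tested.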

How the data were processed

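Transcript levels were measured on 6 Affymetrix ATH1 arrays, 3 per group. Sample titles gave the groups and replicate numbers. The deposited values are signal intensities made with MAS5, per the submitters' processing notes, with no version or scaling target. Their mean with 2% trimmed from both ends was about 100 on each array. Detection calls were not used, so a dim signal cannot be told from background.

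Signals were taken to log2; 95 zeros first received the smallest positive value of their array. Left out were 64 control probe sets and those whose mean log2 signal lay under the 40th percentile (31.2 in signal units), which kept 13648. Groups were compared with limma 3.58.1 in R 4.3.3 (lmFit, eBayes with a trend, two-sided). P-values were adjusted by Benjamini-Hochberg over these 13648, with 0.05 as threshold. On simulated data of that size with 200 changed probe sets, 53% of changes of 1 on the log2 scale and 97% of changes of 2 were recovered, and 6 of 156 calls were false. The simulation changed far fewer probe sets than were called in the data, and its noise was independent between arrays. Its rates may therefore not hold for these data.

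The annotation names 1 gene for 13513 probe sets, 13286 loci in all, and several genes for 503. TAIR10.1 served for names and gene order only. The brightest probe set stood for a locus. Named were the members, list genes past the threshold with up to 3 others of smallest p, and the 5 genes most correlated with AT4G39670. Further list genes were named after their values were seen. The members and lists were chosen with earlier results of these data known.

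Nothing states that replicates were separate cultures, so the p-values cover only the spread between these arrays, which may be technical. As a check of pairing, same-numbered arrays deviated together from their group means (r = 0.747, 0.374 and 0.439, all over the bound of 0.1). The arrays numbered 2 and 3 correlated about as much across numbers (0.412 and 0.368). This check therefore cannot tell whether 2 pairs with 2 and 3 with 3. Results with the block rest on the replicate numbers alone. The reported fit has no block. Alternatives were another scaling, filter, added constant or variance model, the block, and leaving out arrays. The number of arrays limits precision.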

Additional observations from a re-analysis of the deposited data

How the results depend on the processing

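AT4G39670 kept its direction and an adjusted p under 0.05 in all 17 alternatives, with log2 fold changes of 2.73 to 5.52 and limma adjusted p of 2.63e-07 to 0.00156. Without 1 array the log2 fold change was 4.89 to 5.52, and without both arrays numbered 1, an alternative chosen after the data were seen, it was 5.08. With the replicate block its adjusted p was 4.96e-07, and with the block and 16 added, also chosen later, the log2 fold change was 4.02. Across the array 3816 probe sets changed, against 6699 with the replicate block and 6766 with the block and 16 added. Leaving out 1 array gave 2220 to 3687, the fewest without ozone replicate 2, then 2355 without control replicate 3 and 2450 without control replicate 2. Of the head group and turnover genes 1 changed, against 2 after quantile normalization, 2 after median centring, 2 without both arrays numbered 1, 3 with the replicate block, 3 with the block and 16 added, and 1 to 2 without 1 array (2 without ozone replicate 1). Of the ACD11 and cell death genes 1 changed, against 2 after median centring, 2 with the replicate block, 2 with the block and 16 added, 2 without both arrays numbered 1, and 0 with the filter at the 60th percentile, which leaves SAG101 untested. The count for the synthesis genes was 0 in all 17. The sign turned for 4 genes that did not pass in any setting: AT2G19880 after median centring (0.021), and, without 1 array, AT1G01230 (-0.0049 to 0.449), AT2G19880 (-0.534 to 0.192), AT4G39690 (-0.450 to 0.224) and AT4G39720 (-0.336 to 0.0665). The causes were not tested. A permutation test of AT4G39670 against the other 3 loci was not run, since those had no values here. Dim control signals limit how well the fold of AT4G39670 is known.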
